A study of Mus musculus with 6 samples.

Results

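Ephrins are membrane-bound ligands and Eph receptors are the tyrosine kinases that bind them. Here 9 of their genes were followed, 4 ligand genes (Efna1, Efna5, Efnb1 and Efnb2) and 5 receptor genes (Epha2, Epha4, Ephb1, Ephb2 and Ephb4), chosen by name among the 23337 genes of the deposited expression table. The cells were CD31-positive, CD45-negative endothelial cells sorted from mouse spleens after collagenase digestion, 3 samples from Stab1-/- mice (KO 2, KO 3 and KO 4) and 3 from wild-type mice (WT 1, WT 3 and WT 4). Both genotypes are labelled C57BL/6, and no treatment or age is given for either. Stab1 encodes stabilin-1 (Clever-1), a scavenger receptor of sinusoidal endothelium, and the study's title places it in contacts between the spleen vasculature and lymphocytes. The labels do not say that each library came from its own mouse, so a p-value here reflects only how these libraries vary, and that variation may be technical.

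Ephrins of class A are anchored in the membrane by a lipid, whereas class B ephrins span it and have a cytoplasmic tail. An ephrin on one cell binds an Eph receptor on its neighbour, and signals then run forward into the receptor's cell and, for class B above all, in reverse into the ephrin's cell. In blood vessels Efnb2 is known as a gene of arterial endothelium and Ephb4, the gene of its receptor, as one of veins, while ephrin-A1 and its receptor EphA2 are known for roles in endothelial assembly and migration.

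Values are RPKM (reads scaled to gene length and to library depth), so levels of different genes can be set side by side. The libraries held 40415357 to 51674680 reads counted to genes. Stab1, which checks the genotype labels, was at 2.32 to 2.62 RPKM in KO and at 21.6 to 43.6 RPKM in WT. All 12 endothelial markers were expressed, with summed levels of 10790 to 12120 RPKM in KO and 10170 to 11300 RPKM in WT, and Ptprc, the gene of CD45, was at 0.110 RPKM or less throughout. Reticular and fibroblast markers summed to 69.0 to 103 RPKM in KO and to 287, 108 and 115 RPKM in WT (libraries 1, 3 and 4), so that WT 1 stood apart. None of these 10 markers was at 0 in all libraries, and Dcn was the highest of them in WT 1 with 96.2 RPKM. All were highest in WT 1 except Pdgfra and Pdgfrb, which were highest in WT 3. Pdgfrb was lowest in WT 1 (1.98 RPKM). The list holds 1 called gene, Cxcl13, a chemokine gene of follicular stroma, among 8 tested (1.27% of all tested genes were called lower in KO). Cxcl13 was at 14.2 to 19.1 RPKM in KO and 43.7 to 76.0 RPKM in WT (log2 fold change -1.91 ± 0.20 SE, adjusted p = 0.00159 in limma), and it was called in every alternative. In sorted bulk samples, fewer cells of a type and less RNA per cell cannot be told apart.

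The stretches of 250 bases before the transcription start are shown for the most abundant ligand gene (Efna1), the most abundant receptor gene (Ephb4) and the gene of the ligand that the EphB4 receptor binds (Efnb2). They are RefSeq sequences of GRCm38.p6, written 5′ to 3′ on the gene's strand, and capitals mark GGAA or its complement TTCC, the core bound by ETS factors, a family that includes regulators of endothelial genes.
Efna1 (chr3:89279646-89279895, minus strand, the inner of 2 annotated starts): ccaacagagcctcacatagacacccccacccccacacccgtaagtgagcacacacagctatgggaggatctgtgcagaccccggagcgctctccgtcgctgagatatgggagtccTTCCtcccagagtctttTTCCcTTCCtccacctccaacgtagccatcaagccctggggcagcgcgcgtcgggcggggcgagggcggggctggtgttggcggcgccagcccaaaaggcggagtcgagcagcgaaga
Efnb2 (chr8:8661243-8661492, minus strand): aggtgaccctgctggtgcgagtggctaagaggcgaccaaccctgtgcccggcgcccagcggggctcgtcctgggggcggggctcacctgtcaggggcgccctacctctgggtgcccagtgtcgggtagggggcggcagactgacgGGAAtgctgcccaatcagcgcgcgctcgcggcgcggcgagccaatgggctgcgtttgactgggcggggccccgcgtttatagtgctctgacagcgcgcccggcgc
Ephb4 (chr5:137349859-137350108, plus strand): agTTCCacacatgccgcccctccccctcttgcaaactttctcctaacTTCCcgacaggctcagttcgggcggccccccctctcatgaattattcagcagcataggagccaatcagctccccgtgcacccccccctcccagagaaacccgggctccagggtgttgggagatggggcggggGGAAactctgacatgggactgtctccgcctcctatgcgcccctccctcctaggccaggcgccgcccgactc
The core was found 3 times before Efna1, 1 time before Efnb2 and 3 times before Ephb4, on either strand, and 93.4% of the 32851 promoter stretches of this length in the table hold it at least once. GC boxes (GGGCGG, both strands) were found 2, 3 and 4 times in the same order, and 32.7% of all stretches hold one. A TATA box (TATAAA, both strands) was found before Efnb2 only of the 3 genes (12.4% of all stretches), and TGGGAA, bound by the Notch partner RBPJ and overlapping the ETS core, before none of them (21.6% of all stretches).

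Efna1, the gene of ephrin-A1 (chromosome 3, 89271730 to 89280951, GRCm38), was the highest of the 9 in every library. It was at 123, 121 and 114 RPKM in KO (libraries 2, 3 and 4) and at 124, 134 and 117 RPKM in WT (libraries 1, 3 and 4). These ranges overlap, and both are narrow, with a coefficient of variation of 3.88% in KO and 7.05% in WT. The log2 fold change (KO minus WT, on log2(RPKM + 0.5), as for every fold change below) was -0.07 ± 0.09 (SE, adjusted p = 0.740 in limma). Its 95% interval ran from 0.829-fold to 1.1-fold. Each value rested on 7644 to 10097 reads in KO and 8482 to 11160 reads in WT.

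The genes of the transmembrane ligands were much lower than Efna1. Efnb1, which encodes ephrin-B1 (chromosome X, 99136061 to 99149022), was at 16.6, 14.3 and 11.7 RPKM in KO (libraries 2, 3 and 4) and at 10.6, 14.8 and 14.4 RPKM in WT (libraries 1, 3 and 4). Efnb2, which encodes ephrin-B2 (chromosome 8, 8617235 to 8661242), was at 13.8, 12.2 and 16.0 RPKM in KO (libraries 2, 3 and 4) and at 12.2, 21.0 and 14.9 RPKM in WT (libraries 1, 3 and 4). For both genes the groups overlap, and WT 1 held the lowest value, though for Efnb2 it was nearly level with KO 3 (12.17 against 12.19 RPKM). The log2 fold change of Efnb1 was 0.10 ± 0.17 (SE, 95% interval 0.819-fold to 1.4-fold, adjusted p = 0.800 in limma), and it was -0.05 without WT 1. That of Efnb2 was -0.16 ± 0.19 (SE, 95% interval 0.661-fold to 1.21-fold, adjusted p = 0.700 in limma), and it was 0.04 without WT 3, the library where this gene was highest. Efna5, the gene of ephrin-A5 (chromosome 17, 62602957 to 62881317), was nearly silent, with 0.183 to 0.199 RPKM in KO (41 to 52 reads) and 0.147 to 0.255 RPKM in WT (39 to 56 reads).

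**Figure D1:**
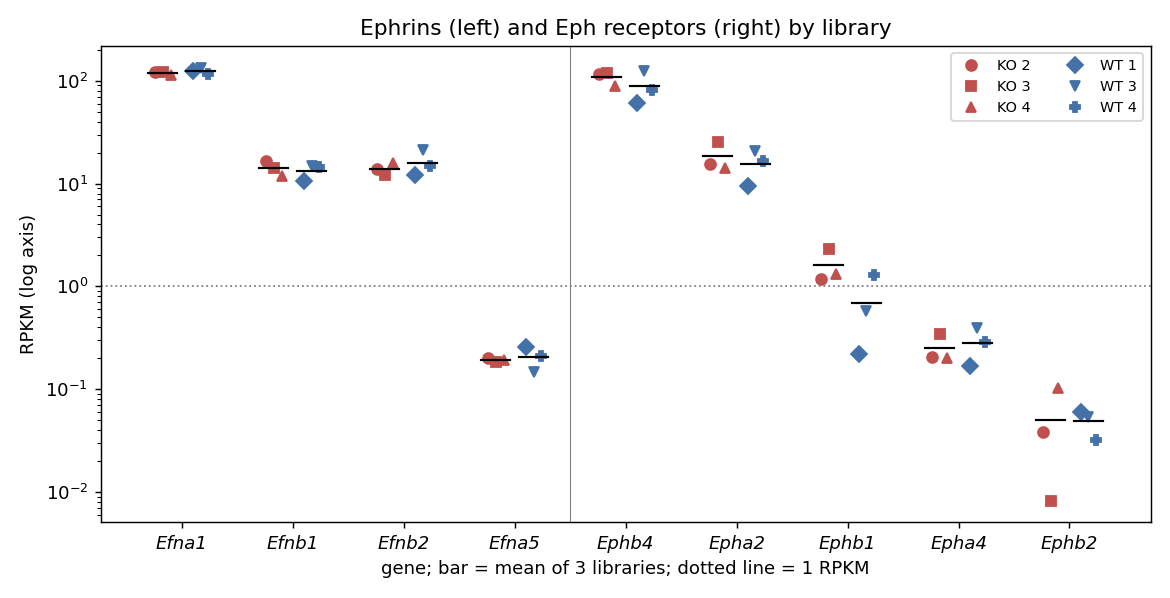
RPKM (log axis) of the 4 ephrin genes and 5 Eph receptor genes in each of the 3 KO and 3 WT libraries, with bars at the group means and a dotted line at 1 RPKM. Efna1 and Ephb4 lie between 60.5 and 134 RPKM in every library, Efnb1, Efnb2 and Epha2 between 9.54 and 25.6 RPKM, and Efna5, Epha4 and Ephb2 below 1 RPKM in every library.

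Among the receptors Ephb4 (chromosome 5, 137350109 to 137374522) was by far the highest. It was at 117, 118 and 89.9 RPKM in KO (libraries 2, 3 and 4) and at 60.5, 124 and 81.7 RPKM in WT (libraries 1, 3 and 4). The KO values lie within the range of the WT values, which spans from the lowest to the highest of the 6 libraries. The log2 fold change was 0.34 ± 0.22 (SE, 95% interval 0.891-fold to 1.79-fold, adjusted p = 0.485 in limma). It was 0.09 without WT 1 and 0.61 without WT 3, and with libraries weighted by an estimated quality, which gave WT 1 and WT 3 weights of 0.336 and 0.452 against 4.19 for WT 4, it was called (0.45, adjusted p = 0.02). With those weights 3653 of the 11035 tested genes were called, against 214 in the main fit. Zan overlaps Ephb4 on the opposite strand and was at 0.0279 RPKM or less.

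Epha2, the gene of a receptor for ephrin-A1 (chromosome 4, 141301221 to 141329384), was at 15.4, 25.6 and 14.2 RPKM in KO (libraries 2, 3 and 4) and at 9.54, 20.5 and 16.7 RPKM in WT (libraries 1, 3 and 4). Its coefficient of variation was 34.2% within KO and 35.7% within WT, and the groups overlap. The log2 fold change was 0.25 ± 0.29 (SE, 95% interval 0.765-fold to 1.85-fold, adjusted p = 0.685 in limma), and its sign turned without WT 1 (-0.06) or KO 3 (-0.01).

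Ephb1, whose product binds class B ephrins (chromosome 9, 101922128 to 102354693), had the largest difference of the tested members. It was low, at 1.19, 2.32 and 1.33 RPKM in KO (libraries 2, 3 and 4; 276, 551 and 254 reads) and at 0.221, 0.576 and 1.28 RPKM in WT (libraries 1, 3 and 4; 43, 136 and 273 reads). The lowest KO value lay below the highest WT value, so the groups overlap, while WT 1 and WT 3 lay below every KO library. The filter on low values asks for 1 RPKM in at least 3 libraries. Ephb1 reached that level in all 3 KO libraries but in WT only in WT 4, so it would not have passed through WT alone. The log2 fold change was 0.89 ± 0.33 (SE, 95% interval 1.1-fold to 3.11-fold), with an unadjusted p of 0.0248 in limma and an adjusted p of 0.246. Of all 11035 genes tested, 15.7% had an unadjusted p under 0.05, and 6.17% had one and were higher in KO (9.57% lower). The size of the difference depends on the pseudocount at this level, from 0.65 with 1 RPKM added to 1.30 with 0.1 RPKM added, and it was 0.57 without WT 1. Epha4, a receptor for both ephrin classes (chromosome 1, 77367182 to 77515107), was at 0.201 to 0.342 RPKM in KO and 0.167 to 0.391 RPKM in WT. Ephb2 (chromosome 4, 136647536 to 136836326), a class B receptor gene, had only 2 to 20 reads per KO library and 7 to 13 per WT library.

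Taken as a group, the 9 genes showed no call between genotypes. Of the 6 that passed the filter on low values (at least 1 RPKM in at least 3 libraries), 0 had an adjusted p under 0.05 in limma or in limma's voom on reads recovered from the RPKM values, where 1.94% of all 11035 tested genes did in limma (0.671% higher and 1.27% lower in KO). In each tool 1 of them, Ephb1, had an unadjusted p under 0.05, as had 15.7% of all tested genes in limma. That share was not computed for voom, which used the same libraries. The median log2 fold change of the 6 was 0.17, against 0.03 over all genes tested, with 4 values above 0 and 2 below. None of the 9 had groups that do not overlap, which 20.3% of tested genes had (10.7% higher and 9.57% lower in KO). Efna5, Epha4 and Ephb2 stayed below the filter. With no filter their log2 fold changes were -0.03, -0.06 and -0.001, with adjusted p-values of 0.902, 0.881 and 0.997 in limma. In the authors' deposited table the log2 fold change was 1.48 for Ephb1 (adjusted p = 0.232), 0.335 for Ephb4 (adjusted p = 0.515) and -0.184 for Efnb2 (adjusted p = 0.682), and none of the 9 is in the authors' deposited lists of higher or lower genes.

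**Figure D2:**
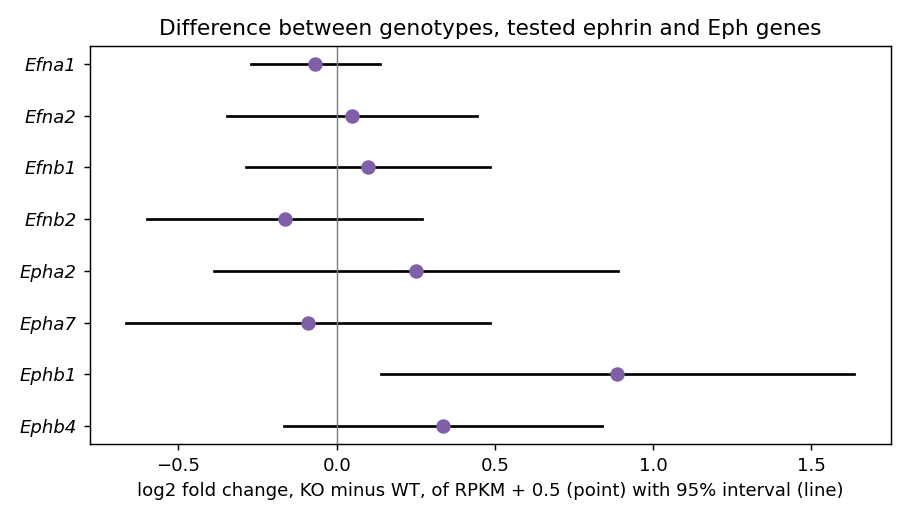
Log2 fold change (KO minus WT, on the log2(RPKM + 0.5) scale) with its 95% interval for the 8 ephrin and Eph genes that passed the filter. The interval of Efna1 is the narrowest (-0.27 to 0.14), and that of Ephb1 alone leaves out 0 (0.14 to 1.64), before adjustment over all genes.

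The order of the levels was nearly the same in both genotypes. In KO the means ran from Efna1 (119 ± 4.63 RPKM, SD, n = 3) and Ephb4 (108 ± 15.8 RPKM) to Epha2 (18.4 ± 6.29 RPKM), Efnb1 (14.2 ± 2.42 RPKM) and Efnb2 (14.0 ± 1.90 RPKM), and then to Ephb1 (1.61 ± 0.617 RPKM), Epha4, Efna5 and Ephb2. In WT they ran from Efna1 (125 ± 8.82 RPKM, SD, n = 3) and Ephb4 (88.8 ± 32.4 RPKM) to Efnb2 (16.0 ± 4.51 RPKM), Epha2 (15.6 ± 5.57 RPKM) and Efnb1 (13.3 ± 2.32 RPKM), and then to Ephb1 (0.693 ± 0.539 RPKM), Epha4, Efna5 and Ephb2. The ranges of Efna1 and Ephb4 overlap in both genotypes, though Efna1 was the higher in all 6 libraries. Epha2, Efnb1 and Efnb2 overlap with their neighbours in that trio in both genotypes, so their order is not resolved. The steps from Ephb4 down to this trio and from the trio down to Ephb1 do not overlap in either genotype. Ephb1 stood clear of Epha4 in KO, whereas in WT their ranges overlap. Epha4 and Efna5 overlap in WT and all but touch in KO. There the lowest Epha4 value was 0.201 RPKM (KO 4) and the highest Efna5 value 0.199 RPKM (KO 2), each from 52 reads, so their order is not resolved.

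Over all 8 ephrin genes and 14 Eph genes of the table, 1 gene of each kind took most of the level. Efna1 made up 77.8% to 79.3% of the summed ephrin RPKM in KO and 77.0% to 82.2% in WT. Ephb4 made up 79.5% to 85.4% of the summed Eph RPKM in KO and 78.7% to 82.3% in WT, and Epha2 another 11.3% to 17.3% in KO and 12.8% to 16.1% in WT. The venous receptor gene Ephb4 was 5.63 to 9.66 times as high as the arterial ligand gene Efnb2 in KO and 4.97 to 5.92 times as high in WT. The ratio of Efnb2 to Ephb4 within a library was 0.118, 0.103 and 0.178 in KO 2, KO 3 and KO 4 and 0.201, 0.169 and 0.182 in WT 1, WT 3 and WT 4. KO 2 and KO 3 lay below every WT library, and KO 4 lay among them. On the log2 scale the ratio averaged -2.91 ± 0.40 in KO and -2.41 ± 0.14 in WT (SD, n = 3 each), and the difference of -0.50 had a two-sided p of 0.2 in an exact permutation test over the 20 assignments, which cannot go below 0.1.

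Single libraries stood out across members. WT 1 held the lowest value of Efnb1, Efnb2 (nearly level with KO 3), Epha2, Epha4, Ephb1 and Ephb4. WT 3 held the highest of Efna1, Efnb2, Epha4 and Ephb4. Efna1 did not follow, with WT 1 at 124 RPKM between the other wild-type values. The pattern was not particular to ephrins and Ephs. Of the 12 endothelial markers, Kdr (61.7 RPKM in WT 1, 171 RPKM in WT 3) and Stab2 (117 and 214 RPKM) were lowest in WT 1 and highest in WT 3. Tek, Tie1, Erg and Esam were also lowest in WT 1. Pecam1, Cdh5, Egfl7, Cldn5 and Plvap were lowest in WT 4, and Emcn in KO 2. WT 1 was also the library with the highest reticular and fibroblast sum (above) and the highest pericyte and smooth muscle sum, which was 304 to 398 RPKM in KO and 538, 314 and 278 RPKM in WT (libraries 1, 3 and 4). Of those 8 markers, Rgs5, Acta2, Tagln, Des and Cnn1 were highest in WT 1, and Myh11, Cspg4 and Notch3 in KO 3. Notch3 was lowest in WT 1 (0.700 RPKM). None of the 8 was at 0 in all libraries. Of them 1 was called, lower in KO (1.27% of all tested genes were), the pericyte gene Rgs5. It was at 1.91 to 2.87 RPKM in KO and 5.14 to 8.71 RPKM in WT (-1.34 ± 0.23 SE, adjusted p = 0.0194 in limma), but it missed the threshold when WT 4 (0.0553), KO 2 (0.0814) or KO 3 (0.0922) was left out, and when every gene above 0 was tested (0.103). The part of these cells in the low class B ephrin and receptor values of WT 1 was not tested. Over the 6 libraries the tested genes most like Ephb4 were Mta2 (Pearson's r = 0.9985), X99384 (0.9978) and Rbm15b (0.9971), and those most like Efnb2 were Sec24b (0.9845), Etl4 (0.9812) and Dapk1 (0.9791). Such values describe 6 libraries that share their preparation, with no test, and the most alike of 11035 genes are always close.

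**Figure D3:**
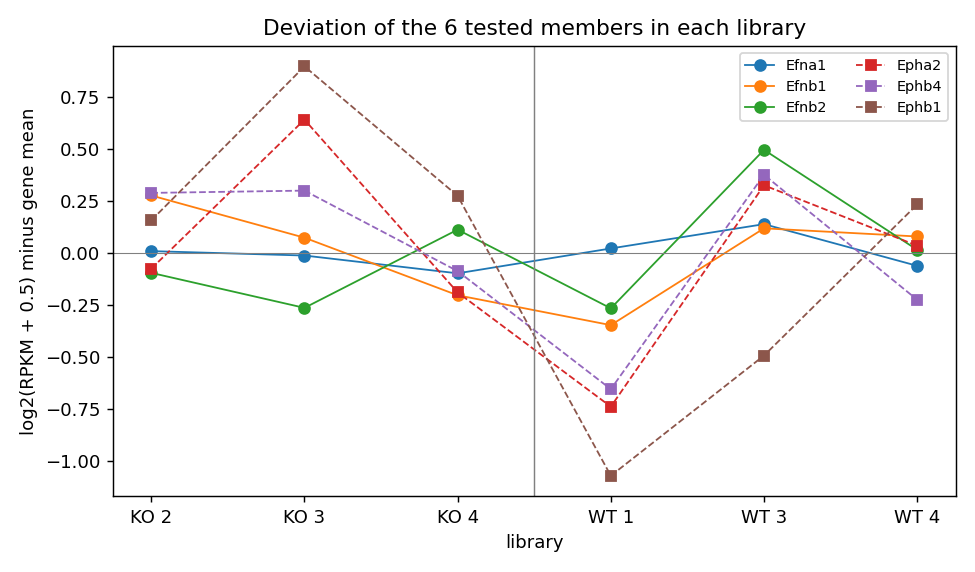
Deviation of log2(RPKM + 0.5) from the mean over all 6 libraries for the 6 tested members, with ephrin genes as circles and receptor genes as squares, KO libraries left of the line and WT libraries right of it. The receptor genes Ephb4, Epha2 and Ephb1 lie lowest in WT 1, and Efna1 stays near 0 throughout.

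Of the 13 other ephrin and Eph genes, 2 passed the filter and 0 were called in limma, nor had either an unadjusted p under 0.05. Efna2, the gene of ephrin-A2, was at 2.79 to 3.32 RPKM in KO and 2.60 to 3.49 RPKM in WT (log2 fold change 0.05 ± 0.18 SE, adjusted p = 0.911 in limma). Epha7, a class A receptor gene, was at 1.98, 1.30 and 3.20 RPKM in KO (libraries 2, 3 and 4) and at 1.95, 2.31 and 2.40 RPKM in WT (libraries 1, 3 and 4) (-0.09 ± 0.26 SE, adjusted p = 0.883 in limma). The groups overlap for both genes. Epha5 and Epha6 were listed at 0 in every library.

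Ephb6, which encodes a class B receptor without kinase activity, was below the filter and is named because of its values. Its level was 0.198, 0.204 and 0.195 RPKM in KO (libraries 2, 3 and 4; 37, 39 and 30 reads) and 0.918, 1.86 and 0.687 RPKM in WT (libraries 1, 3 and 4; 144, 353 and 118 reads). Every KO library was lower than every WT library, as for 9.57% of the 11035 genes that passed the filter. That share was not computed below the filter. Among the 13 other family genes Epha3 had no overlap either (0.197 to 0.263 RPKM in KO, 0.264 to 0.362 RPKM in WT). Ephb6 was not called with no filter on low values (log2 fold change -1.18 ± 0.25 SE, adjusted p = 0.143 in limma, where 0.435% of 17683 genes were called), and the authors' deposited table gives it an adjusted p of 0.0524 with a log2 fold change of -2.41. The summed level of megakaryocyte and platelet markers was lower in every KO library as well, at 52.1, 58.1 and 68.2 RPKM in KO (libraries 2, 3 and 4) and 121, 238 and 80.8 RPKM in WT (libraries 1, 3 and 4). All 7 of those markers were tested, and all 7 had a negative log2 fold change. Of them 1, Pf4, was called (1.27% of all tested genes were called lower). That call was lost without KO 3 (adjusted p = 0.0772 in limma) and when every gene above 0 was tested (0.109). The groups overlap for Itga2b, Gp1bb, Gp9, Treml1 and Gp5, and none of the 7 markers was at 0 in all libraries. The sums of 2 other marker lists were lower in every KO library too. These were reticular and fibroblast (69.0 to 103 RPKM in KO, 108 to 287 RPKM in WT) and Schwann and nerve markers (3.99 to 6.58 and 7.90 to 9.05 RPKM). Of the 5 Schwann and nerve markers, 4 were below 1 RPKM in every library. The sums of the remaining marker lists overlap between genotypes. The part of any of these cells in the Ephb6 values was not tested.

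**Figure D4:**
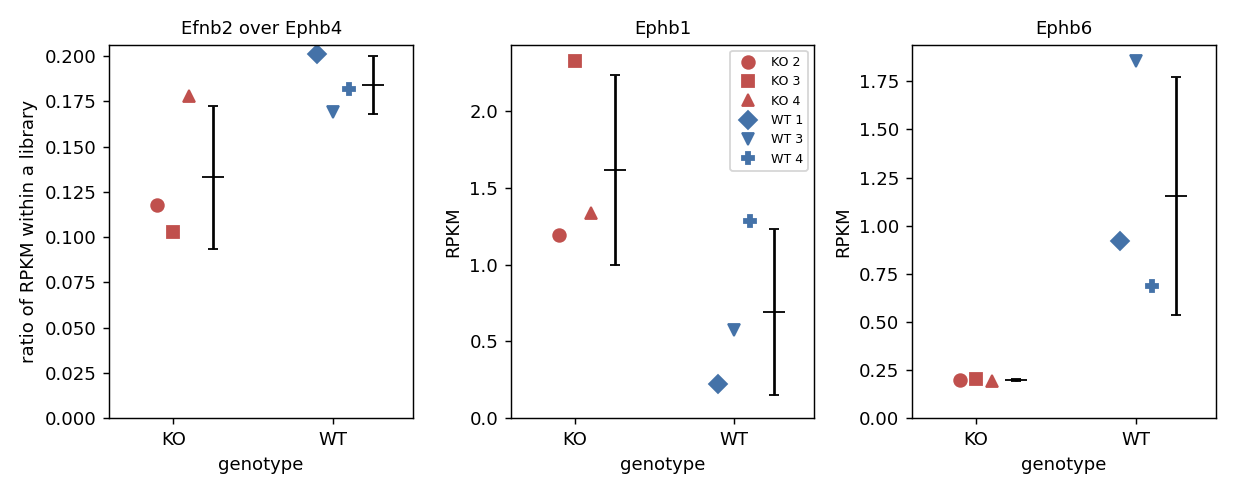
Ratio of Efnb2 to Ephb4 RPKM within each library (left), RPKM of Ephb1 (middle) and RPKM of Ephb6 (right) in the 3 KO and 3 WT libraries, with mean and SD beside the points. The ratio and Ephb1 overlap between genotypes, and Ephb6 is at 0.195 to 0.204 RPKM in KO, below all 3 WT libraries.

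Genes that act with ephrins and Eph receptors were read from the same test. Of 32 genes of Eph forward signalling, 25 were tested, 0 were called higher and 2 lower in KO (0.671% and 1.27% over all tested genes), with a median log2 fold change of 0.09. At an unadjusted p under 0.05 in limma, 4 of the 25 were higher and 5 lower in KO (6.17% and 9.57% over all tested genes). Both called genes, Rock1 and Rock2, encode kinases that act on the actin cytoskeleton. Rock1 was at 7.14, 6.70 and 7.05 RPKM in KO (libraries 2, 3 and 4) and at 13.6, 12.7 and 14.1 RPKM in WT (libraries 1, 3 and 4). The KO values lay well below the WT values, and the log2 fold change was -0.90 ± 0.13 (SE, adjusted p = 0.00859 in limma). Rock2 was at 7.69, 8.87 and 9.61 RPKM in KO (libraries 2, 3 and 4) and at 14.7, 16.9 and 19.1 RPKM in WT (libraries 1, 3 and 4), with a log2 fold change of -0.92 ± 0.15 (SE, adjusted p = 0.0148 in limma). Correcting for GC content and length ended both calls (Rock1 -0.55, adjusted p = 0.0658, and Rock2 -0.51, adjusted p = 0.0585), and so did leaving out KO 3 (adjusted p = 0.0523 and 0.0694). The call of Rock2 was also lost without WT 4 (0.0704) or KO 2 (0.0788), and when every gene above 0 was tested (0.0627). The GC content of their longest transcripts was 40.2% for Rock1 and 41.4% for Rock2, while that of the 6 tested members was 50.4% to 58.4%.

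The other lists held few or no calls. Of 10 tested genes of ephrin reverse signalling 0 were called in limma and 1 had an unadjusted p under 0.05 (15.7% of all tested genes). This was Fyn, a Src-family kinase gene, at 121 to 130 RPKM in KO and 92.7 to 108 RPKM in WT (log2 fold change 0.31, adjusted p = 0.151 in limma). Tjp1, which encodes the junction protein ZO-1, came next (-0.42, adjusted p = 0.368). Of 14 tested genes of shedding and turnover 0 were called in limma and 2 had an unadjusted p under 0.05 (15.7% of all tested genes). Ncstn, which encodes the membrane protein nicastrin, was at 95.8 to 97.9 RPKM in KO and 113 to 124 RPKM in WT (-0.27, adjusted p = 0.162, and 0.0399 after the GC and length correction). Of 20 tested arterial genes, the class to which Efnb2 belongs, 0 were called, 4 were lower at an unadjusted p under 0.05 (9.57% over all tested genes), and the median was -0.06. Mgp, a matrix protein gene, and Nrp1, a VEGF and semaphorin co-receptor gene, had the smallest p-values (-0.77, adjusted p = 0.126, and -0.62, adjusted p = 0.145 in limma). Of 14 venous genes, the class of Ephb4, 1 was called, lower in KO (1.27% of all tested genes were), and the median was 0.05. The called gene was Vwf, which encodes von Willebrand factor and is also expressed by megakaryocytes, at 0.0981 to 0.531 RPKM in KO and 1.39 to 2.86 RPKM in WT (-1.69 ± 0.28 SE, adjusted p = 0.0191 in limma). It passed the filter on low values through the WT libraries alone. The sums of platelet, reticular and Schwann markers given for Ephb6 were lower in KO too. Their part in the Vwf values was not tested. The call was lost without KO 2 (0.0781) or KO 3 (0.0868), and when every gene above 0 was tested (0.0902).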

How the data were processed

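The authors deposited RPKM for 23337 genes in 6 libraries of sorted spleen endothelial cells. Complementary DNA was made with a SMART-Seq low-input kit and libraries with Nextera XT, per the labels' protocols. Tools named without settings were STAR 2.5.2b, Subread, limma and edgeR, with mm10 as the genome, per the submitters' processing notes. The authors also deposited log2 fold changes with raw and adjusted p-values, per the file headers. The number in each column name differs from the replicate numbers in the labels, so only the genotype was used to assign columns.

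The 11035 genes that reached 1 RPKM in 3 or more libraries were kept. RPKM are not counts, so log2(RPKM + 0.5), which understates the change of low genes, was modelled by genotype in limma 3.58.1 (R 4.3.3, intensity trend), with p-values adjusted by Benjamini-Hochberg over all tested genes at 0.05. Each library's values were whole multiples of 1 read's worth (tolerance 0.001) in 16582 of 16582 genes above 0 in at least 2 libraries, which gave reads and depth (deposited scaling beyond depth 0.979 to 1.026). The multiple was searched for, so a gene above 0 in few libraries could match by accident. The count does not check the reads of such genes. Precision is set by the spread between libraries. Alternatives were other pseudocounts, filters and scalings, quality weights, voom, removal of GC and length trends by loess (GENCODE M21 transcripts) and leaving out each library.

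The members and gene lists were chosen with earlier results of these data known. Named genes were all members, other family genes past the filter, per list the called genes (up to 4) or else the 2 of smallest p, and the 3 genes most like Efnb2 and Ephb4. Ephb6, Epha3, Dcn, Pdgfra, Pdgfrb and Zan were added after their values were seen. So were the endothelial, pericyte and platelet markers other than Rgs5 and Pf4. A gene that this rule names is not reported here. Positions came from RefSeq GRCm38.p6 and figures from Python 3.11.15 with matplotlib 3.10.9.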

Additional observations from a re-analysis of the deposited data

How the results depend on the processing

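Over 15 alternatives, the count of called members stayed at 0 except with library quality weights, where it was 1 (Ephb4). The count of called genes, 214, was 77 with no filter on low values, 3653 with quality weights and 56 to 418 without single libraries. Of the calls, 34.6% were higher in KO, against 48.5% with GC and length trends removed, 48.5% with quality weights, 25.4% in voom and 16.7% without KO 4. Of 89 values of tested members, 7 turned in sign, none of a called gene: Efna1 with quality weights (0.03), Efnb1 with those trends removed (-0.015), and without WT 1 or KO 2 (-0.05 to 0.23 without single libraries), Efnb2 without WT 3 (-0.338 to 0.043), and Epha2 without WT 1 or KO 3 (-0.055 to 0.477). Outside the 9, Efna2 turned with quality weights (-0.17), with those trends removed (-0.034) and without WT 1 or KO 3 (-0.022 to 0.161), and Epha7 with quantile normalization (0.038), with those trends removed (0.244) and without KO 3 (-0.36 to 0.16). The cause was not tested. Ephb1 ranged from 0.25 with quality weights to 1.45 in voom, never called (adjusted p 0.127 to 0.712). The ratio of Efnb2 to Ephb4 kept its sign (-0.72 to -0.34 without single libraries). No paired analysis was possible because the columns do not carry the labels' replicate numbers. With 3 libraries per genotype, changes within the stated intervals were not resolved.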
